A study of Mus musculus with 12 samples.

Results

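The genes described here make, use, recycle and break down glutathione, or belong to the antioxidant programme of the transcription factor NRF2. They were taken by symbol. Every gene beginning with Gst, Mgst or Ggt entered, as did every Gpx gene with a number, together with 16 single genes: Gclc, Gclm, Gss, Gsr, Nqo1, Hmox1, Txn1, Txnrd1, Srxn1, Prdx1, Cat, Sod1, Sod2, Sod3, Nfe2l2 and Keap1. Symbols marked as pseudogenes were left out. The rule found 54 members among 46095 gene symbols, and 49 of the 54 had enough counts to be tested. The other 5 (Gpx2, Gpx5, Gstp2, Gstt4 and Mgst2) stayed at or below 0.565 CPM in every library, where CPM is the read count of a gene scaled to the size of its library. The prefix Ggt also takes Ggta1, which encodes an enzyme of glycan synthesis and no glutathione enzyme, and it is kept because the rule is by symbol.

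RNA sequencing was made from renal cortex of C57BL/6 mice aged 12 weeks, in 12 libraries, 4 in each of 3 groups: diabetic nephropathy with sodium butyrate (DN+NaB), diabetic nephropathy without it (DN), and normal control (NC). Diabetic nephropathy is the kidney disease of diabetes, and butyrate, a fatty acid that gut bacteria produce, inhibits histone deacetylases. The labels do not say how diabetes was brought about, nor the dose, route or duration of butyrate, and no group received butyrate without diabetes. Whether each library is 1 animal is not labelled, and p-values therefore reflect the scatter among these samples alone, which may be technical. In such bulk tissue, fewer cells of a type and less RNA per cell cannot be told apart.

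Glutathione is a small peptide that is built in the cytosol by glutamate-cysteine ligase and then glutathione synthetase. Peroxidases spend it to remove peroxides, transferases attach it to reactive compounds, and gamma-glutamyltransferase takes it apart outside the cell, above all on the brush border of the kidney's proximal tubule. NRF2 is held down by KEAP1 and, when released, binds antioxidant response elements near genes for glutathione synthesis, conjugation, thioredoxin recycling and quinone reduction.

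The core letters of that element, TGACNNNGC, were looked for on both strands from 250 bases before to 50 bases after the annotated start of each gene (promoters from RefSeq, assembly GRCm38.p6), and no other motif was searched. Promoters were at hand for 47 of the 54 members, and 11 of those 47 genes (23.4%) held a match, against 14% of all 27025 genes in the promoter table. By promoter, 13 of 65 (20%) held one, against 12.4% of all 32851. The entries not matched were Gclc, Ggt5, Gsr, Gsta4, Gstt2, Hmox1 and Sod3. The windows of 5 members that were called in a comparison are shown, because they belong to genes that moved in opposite directions. They lie at chr3:122245413-122245441 (Gclm, + strand), chr10:75568616-75568644 and chr10:75571467-75571495 (Ggt1, 2 of the 3 starts with a match, + strand; the third lies at the edge of its window), chr3:107931725-107931753 (Gstm7, - strand), chr6:138140461-138140489 (Mgst1, + strand) and chr2:152105542-152105570 (Srxn1, + strand). Each is written along the gene's own strand with the match in capitals, and a match on the opposite strand reads GCNNNGTCA.
Gclm: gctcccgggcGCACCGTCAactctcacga
Ggt1, one start: gaagggaggaGCTGGGTCActgctgggga
Ggt1, another start: gtcacaagccTGACGCTGCgcctccttgc
Gstm7: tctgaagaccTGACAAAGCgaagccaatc
Mgst1: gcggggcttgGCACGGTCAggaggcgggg
Srxn1: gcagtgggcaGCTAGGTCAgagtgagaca
Gclm and Ggt1 were called lower in DN, and Mgst1 and Srxn1 higher, so members of both directions held a match, which lies before the start for Mgst1 and 28 bases after it for Srxn1. Of the other called members in the promoter table, Ggt6, Ggta1, Gpx3, Gpx6, Gsta1, Gsta2, Gstm6, Gsto1, Gstt1 and Gstt3 had no match in this window, which says only that these letters are not there.

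Libraries held 58394975 to 70674015 counts (median 63588713), and the CPM values below were scaled with TMM factors, which also allow for differences in composition between libraries. Renal cortex is the labelled tissue, but the extraction text names a cortex of the brain. The kidney genes Lrp2 and Umod had at least 547305 and 165229 counts in every library, and the neuronal gene Snap25 had 0 in all 12. DN replicate 4 stood apart: its summed level of 9 tubular injury markers was 3640 CPM, the highest of the 12 libraries. On the second principal component of the 500 most variable genes (13.8% of variance) it lay at -39.7. The other libraries lay there between -10.4 and 23.4. On the first component (55.6%) it lay at 19.8, among the other DN libraries at 17.3 to 20.4. Markers of the S3 segment of the proximal tubule (8 of 8 in the table, none at 0 in all libraries) summed to 946 to 1180 CPM in DN+NaB and 1320 to 1650 CPM in DN, against 3050 to 4600 CPM in NC. In NC most of that sum was Atp11a, which had at least 119207 counts there and at most 45550 in any diabetic library. Slc22a7, Slc7a13, Slc22a30 and Acsm3 also had fewer counts in every diabetic library than in any NC library. The fall was not shared by all S3 markers, since the counts of Slc5a1, Slc6a18 and Slc7a12 overlapped between DN and NC. Scaled to library size, Slc6a18 was higher in every DN library than in any NC library. Markers of the S1 and S2 segments (11 of 11, none at 0) summed to 27800 to 36700 CPM in DN+NaB, 20000 to 32300 CPM in DN and 22400 to 27000 CPM in NC. Genes known to be higher in male mouse kidney (8 of 8) summed to 1740 to 2850 CPM in DN+NaB and 1310 to 3150 CPM in DN, against 6160 to 10600 CPM in NC. In NC most of that sum was Kap, with at least 264117 counts there and at most 93872 in any diabetic library. Cyp4a12a went the other way, with 2267 to 4634 counts in DN+NaB, 2967 to 10836 in DN and 556 to 952 in NC. Cyp2e1 overlapped between DN and NC, and Acsm3 and Slc22a30 are also on the S3 list. Genes known to be higher in female mouse kidney (5 of 5) summed to 1180 to 1760 CPM in DN+NaB and 1300 to 1890 CPM in DN, against 434 to 694 CPM in NC. Most of these counts were of Cyp4a10 and Cyp4a14, Prlr overlapped NC in both diabetic groups, and Slc7a12 is also on the S3 list. The part of these shifts in the member results below was not tested.

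Per kilobase of exon, members spanned from Gpx3, with 38300 CPM per kb in DN+NaB, 37400 in DN and 22400 in NC, to members below 1 CPM per kb. Gpx3 encodes the secreted, selenium-containing glutathione peroxidase of plasma, of which the proximal tubule is the main source. The next members in NC were Gpx1, the cytosolic peroxidase, at 739 CPM per kb, Ggt1, the brush border enzyme, at 627, Gstm1, a mu class transferase, at 440, and catalase (Cat) at 381. All members together took 7.71 ± 0.38% of counts in DN+NaB, 7.51 ± 0.471% in DN and 5.3 ± 0.57% in NC (SD, n = 4 each). Without Gpx3 the shares were 0.974 ± 0.055% in DN+NaB, 0.881 ± 0.086% in DN and 1.06 ± 0.0641% in NC.

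**Figure D1:**
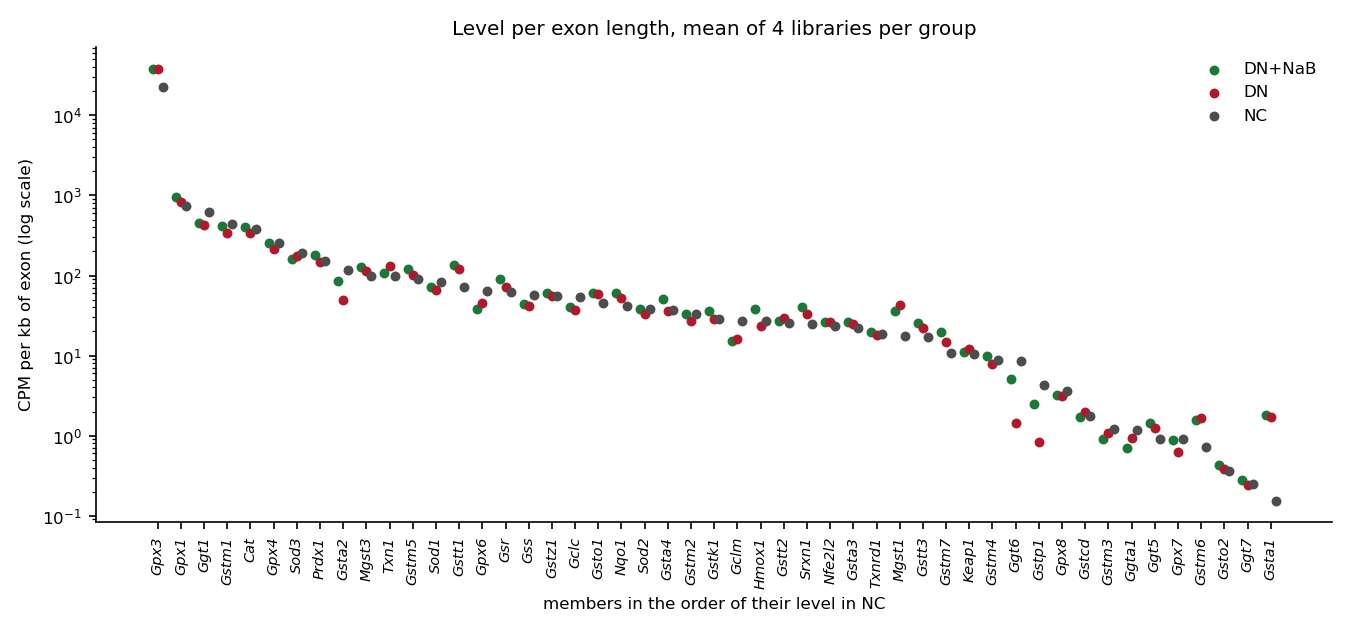
Mean CPM per kilobase of exon (log axis) in DN+NaB, DN and NC for members at 0.1 or more in NC, ordered by their level in NC. Gpx3 lies far above all others, and Gsta1, the lowest at right in NC, lies higher in DN+NaB and DN.

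The diabetic cortex had lower transcripts for the enzymes that start glutathione synthesis and for the enzyme that breaks it down outside the cell. Higher transcripts were found for the secreted peroxidase and for several transferases, of which Gsta1 and Gstm6 were at low levels. Transcripts of another transferase, Gsta2, were lower. The call of Ggt1, the enzyme of breakdown, was lost when certain single libraries were left out. In DN against NC, 6 members were called higher (Gpx3, Gsta1, Gstm6, Gstt1, Mgst1 and Srxn1) and 5 lower (Gclc, Gclm, Ggt1, Ggt6 and Gsta2). A gene was called where edgeR's quasi-likelihood test, adjusted by the Benjamini-Hochberg method over all 17530 genes tested, gave an adjusted p under 0.05. The members called were 22.4% of the 49, where 8.23% of all tested genes were called, 3.82% higher and 4.42% lower. The median log2 fold change was -0.0239 over members and 0.0128 over all genes, with 23 members above 0 and 26 below. The values of the groups did not overlap for 8 members that were higher in DN and 7 that were lower, where this held for 5.86% and 7.49% of all genes. Without DN replicate 4, 8 members were called higher, with Gstm7 (0.55, adjusted p = 0.0146) and Gstt3 (0.45, adjusted p = 0.00773) added, and 5 lower, with Ggta1 (-0.65, adjusted p = 0.0413) in and Ggt6 out; without DN replicate 1, 3 were called lower.

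In DN+NaB against NC, which shares the NC libraries with the comparison above, 10 members were called higher (Gpx3, Gsr, Gsta1, Gstm6, Gstm7, Gsto1, Gstt1, Gstt3, Mgst1 and Srxn1) and 4 lower (Gclc, Gclm, Ggta1 and Gpx6). These were 28.6% of the 49 members, where 15.6% of all tested genes were called, 6.62% higher and 8.94% lower. The median log2 fold change was 0.154 over members and -0.00928 over all genes. Groups did not overlap for 13 members that were higher in DN+NaB, where this held for 14% of all genes, and for 5 that were lower, where it held for 13.9%. The count of members called lower dropped to 2 without NC replicate 2 or 3 or DN+NaB replicate 2, 3 or 4.

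**Figure D2:**
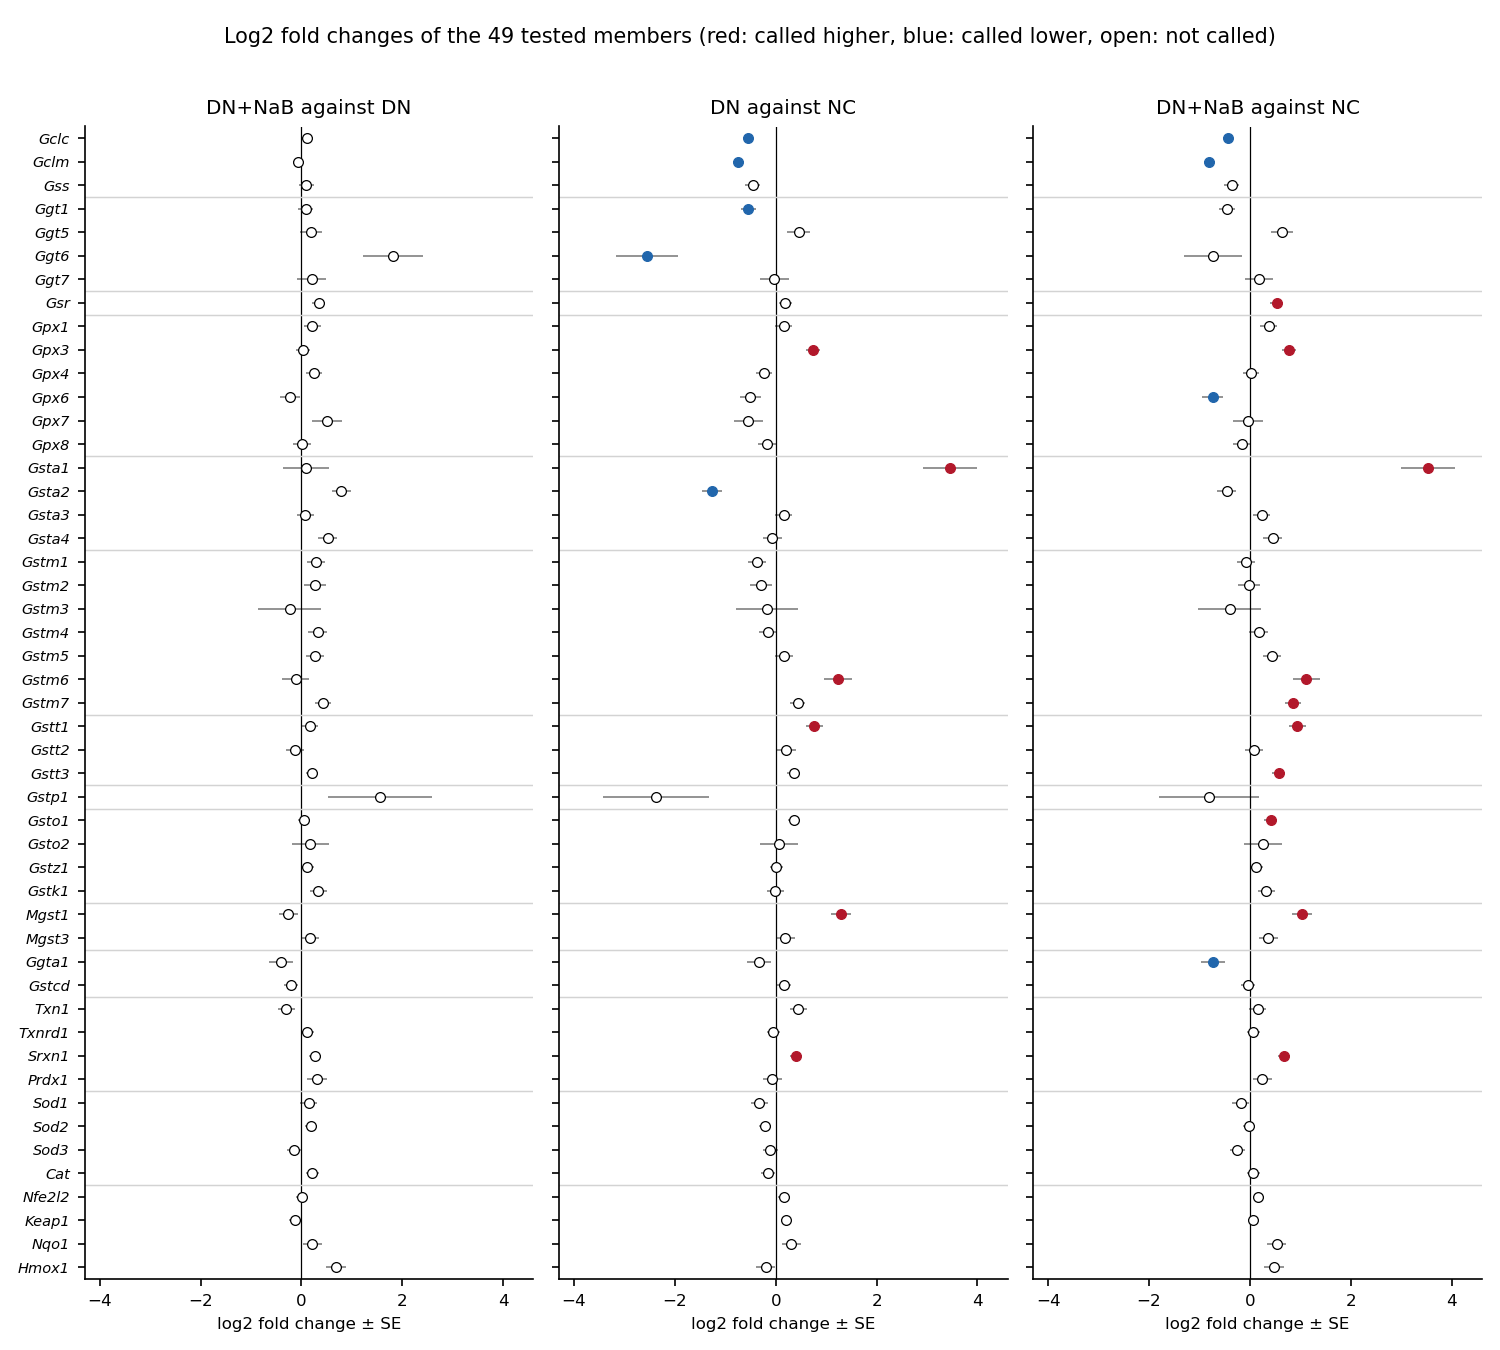
Log2 fold changes with their standard errors for the 49 tested members, grouped by role (grey lines), in DN+NaB against DN, DN against NC and DN+NaB against NC. Filled points are called, red higher and blue lower; no point is filled in DN+NaB against DN.

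All 3 genes of glutathione synthesis lay lower in both diabetic groups than in NC. Gclc, the catalytic subunit of glutamate-cysteine ligase, had 174, 146, 153 and 132 CPM in DN+NaB, 132, 136, 130 and 159 CPM in DN, and 219.6, 192, 203 and 203 CPM in NC. Gclm, the modifier subunit that raises the activity of the ligase, had 106, 98.3, 102 and 81.3 CPM in DN+NaB, 116, 96.6, 100 and 94.1 CPM in DN, and 182, 157, 166 and 175 CPM in NC. For both subunits every DN+NaB and every DN library lay below every NC library, and DN+NaB and DN overlapped. Gclc had a log2 fold change of -0.43 ± 0.11 in DN+NaB against NC (SE, edgeR adjusted p = 0.0135) and -0.55 ± 0.11 in DN against NC (adjusted p = 0.00515). Gclm had one of -0.81 ± 0.11 in DN+NaB against NC (edgeR adjusted p = 0.000226) and -0.74 ± 0.11 in DN against NC (adjusted p = 0.000629). Without DN+NaB replicate 4 the call of Gclc in DN+NaB against NC was lost (adjusted p = 0.0527). Gss, glutathione synthetase, which adds glycine in the second step, averaged 262 ± 29.0 CPM in DN+NaB, 246 ± 55.2 CPM in DN and 337 ± 21.8 CPM in NC (SD, n = 4 each). Its groups did not overlap with NC either, with log2 fold changes of -0.36 in DN+NaB (edgeR adjusted p = 0.125) and -0.45 in DN (adjusted p = 0.0858), which miss the threshold.

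The subunits also stood in a different proportion. Gclm counts per Gclc count were 0.610, 0.674, 0.671 and 0.615 in DN+NaB, 0.874, 0.710, 0.769 and 0.591 in DN, and 0.831, 0.820, 0.820 and 0.861 in NC. This ratio is taken within a library and is independent of scaling. All DN+NaB libraries lay below all NC libraries, while the DN libraries were spread across both.

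Breakdown was led by Ggt1, the gamma-glutamyltransferase that opens extracellular glutathione on the brush border. It averaged 1557 ± 186 CPM in DN+NaB, 1469 ± 318 CPM in DN and 2140 ± 185 CPM in NC (SD, n = 4 each). Its range was 1376 to 1810 CPM in DN+NaB and 1059 to 1744 CPM in DN, below the range of 1917 to 2362 CPM in NC. In DN against NC the log2 fold change was -0.54 ± 0.15 (SE, edgeR adjusted p = 0.0442), and in DN+NaB against NC it was -0.46 ± 0.15 (adjusted p = 0.0585). The call in DN was lost without NC replicate 1, 2 or 3, DN replicate 1, or DN+NaB replicate 1, 3 or 4, with adjusted p up to 0.109. Ggt5, which acts on leukotrienes, was not called in any comparison, and Ggt7 stayed under 1 CPM.

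Ggt6, a less studied relative of Ggt1, was low in DN and split in DN+NaB. It had 2.96, 17.1, 2.21 and 14.8 CPM in DN+NaB, 2.87, 2.01, 4.12 and 1.47 CPM in DN, and 14.9, 14.8, 13.8 and 17.8 CPM in NC. All DN libraries lay below all NC libraries, while in DN+NaB replicates 1 and 3 lay within the range of DN and replicates 2 and 4 near that of NC. Ggt6 changed by -2.55 ± 0.61 on the log2 scale in DN against NC (SE, edgeR adjusted p = 0.0233), and the call was lost without DN replicate 1, 2 or 4 (adjusted p up to 0.0692). Its log2 fold change was 1.82 ± 0.59 in DN+NaB against DN (edgeR adjusted p = 0.339) and -0.73 ± 0.57 in DN+NaB against NC (adjusted p = 0.426).

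The genes most like Ggt6 over the 12 libraries, by Pearson's r of log2 CPM among 13539 genes with a mean above 1 CPM, lay mostly on its own chromosome. Of the 10 with the highest r, 6 lie on chromosome 11, which holds 8.29% of the compared genes with a known chromosome. They were 2610507I01Rik (r = 0.948), Tnfsf12 (0.941), Wrap53 (0.927), Smtnl2 (0.884), Sat2 (0.867) and Zfp672 (0.852). These r values describe the same libraries on which the genes were picked. The transcript 2610507I01Rik had 0.289, 7.55, 0.313 and 5.56 CPM in DN+NaB, 0.235, 0.458, 0.303 and 0.371 CPM in DN, and 11.0, 10.7, 9.11 and 12.0 CPM in NC. It too was low in DN+NaB replicates 1 and 3 and high in replicates 2 and 4. Tnfsf12, which encodes the cytokine TWEAK, had 2.40, 4.67, 2.45 and 5.20 CPM in DN+NaB, 3.65, 2.73, 3.41 and 2.49 CPM in DN, and 5.65, 5.0, 5.02 and 4.97 CPM in NC, with the same pair of DN+NaB libraries high. Wrap53 had 11.35, 15.73, 11.42 and 15.56 CPM in DN+NaB, again with that pair higher. Smtnl2, next to Ggt6 on one side, had 53.2, 71.0, 47.3 and 65.8 CPM in DN+NaB, with the same pair higher. Its range was 43.0 to 59.1 CPM in DN and 64.1 to 77.5 CPM in NC. Mybbp1a, next to Ggt6 on the other side, ran from 123 to 137 CPM in DN+NaB, 105 to 150 CPM in DN and 93.9 to 106 CPM in NC, without that split.

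**Figure D3:**
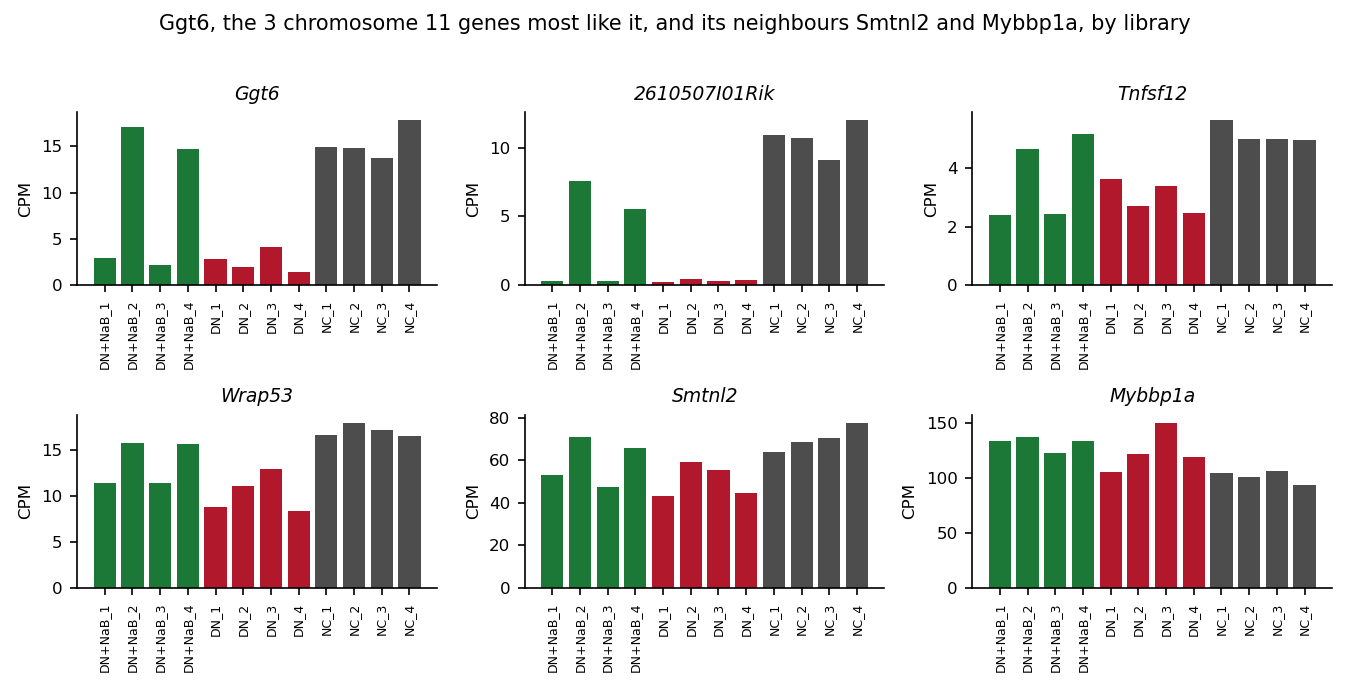
CPM in each of the 12 libraries (bars, from 0) of Ggt6, of the 3 chromosome 11 genes most like it, and of its neighbours Smtnl2 and Mybbp1a. DN+NaB replicates 2 and 4 are higher than replicates 1 and 3 for every gene shown but Mybbp1a, most widely for Ggt6 and 2610507I01Rik.

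Recycling of oxidised glutathione rests on Gsr, glutathione reductase, which uses NADPH. Gsr had 250.1, 297, 222 and 236 CPM in DN+NaB, 209, 159, 239 and 187 CPM in DN, and 186, 172, 162 and 176 CPM in NC. Every DN+NaB library lay above every NC library, and DN overlapped both. The log2 fold change was 0.53 ± 0.13 in DN+NaB against NC (SE, edgeR adjusted p = 0.013), lost without DN+NaB replicate 2 (adjusted p = 0.0506), and 0.19 ± 0.13 in DN against NC (adjusted p = 0.431).

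Among the peroxidases Gpx3 was higher with diabetes. It had 64458, 71450, 67790 and 73865 CPM in DN+NaB, 69062, 71528, 73492 and 57058 CPM in DN, and 37289, 47388, 44240 and 33693 CPM in NC. All libraries of both diabetic groups lay above all NC libraries, and the diabetic groups overlapped. Gpx3 had a log2 fold change of 0.77 ± 0.14 in DN+NaB against NC (SE, edgeR adjusted p = 0.0025) and 0.74 ± 0.14 in DN against NC (adjusted p = 0.00522). Gpx6 had 58.0, 53.6, 40.6 and 58.0 CPM in DN+NaB, 74.6, 55.4, 65.5 and 50.6 CPM in DN, and 80.3, 103, 113 and 52.9 CPM in NC. NC replicate 4 lay within the ranges of both diabetic groups. Gpx6 was called lower in DN+NaB against NC (-0.74 ± 0.21, edgeR adjusted p = 0.0295) and not in DN against NC (-0.51 ± 0.21, adjusted p = 0.168). Its call in DN+NaB was lost without NC replicate 2 or 3 or DN+NaB replicate 2 or 3 (adjusted p up to 0.0862), and without NC replicate 4 it was also called in DN against NC (-0.70, adjusted p = 0.0232).

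The remaining peroxidases were not called in any comparison. Gpx1 averaged 1376 ± 98.7 CPM in DN+NaB, 1186 ± 273 CPM in DN and 1064 ± 183 CPM in NC. Gpx4, which reduces lipid peroxides in membranes, averaged 443 ± 46.4 CPM in DN+NaB, 373 ± 81.7 CPM in DN and 437 ± 70.1 CPM in NC (SD, n = 4 each). Gpx7 and Gpx8, which reside in the endoplasmic reticulum, averaged 1.13 and 3.37 CPM in DN+NaB, 0.798 and 3.32 CPM in DN, and 1.16 and 3.74 CPM in NC.

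**Figure D4:**
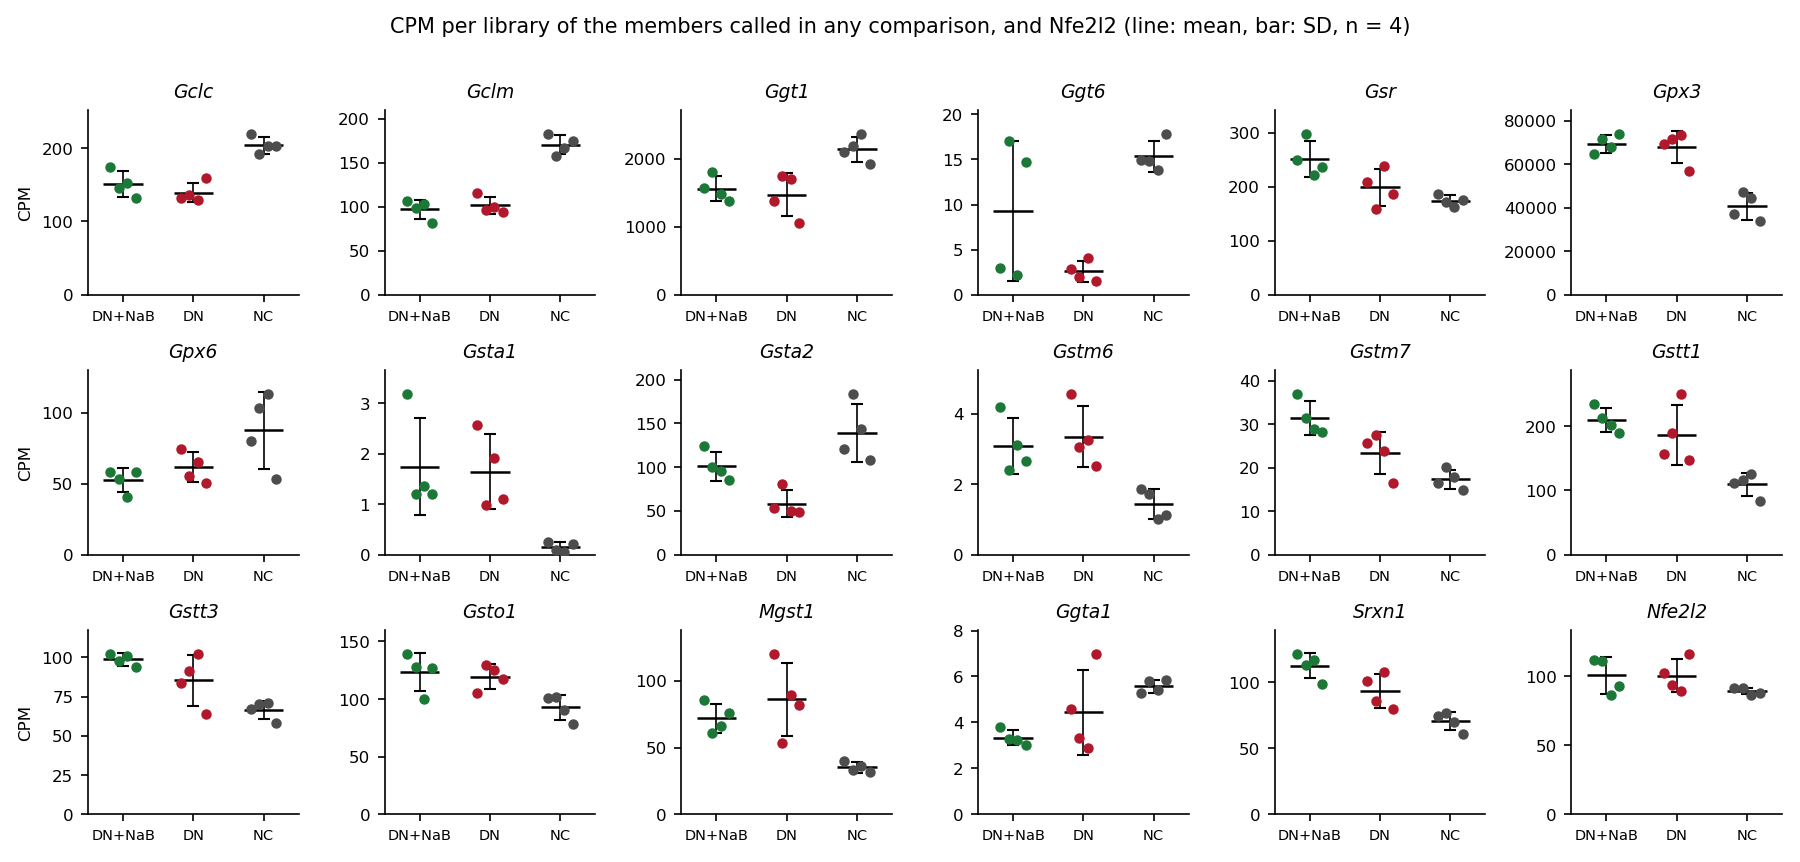
CPM per library (points) with mean and SD (n = 4) in DN+NaB, DN and NC for the 17 members called in any comparison and for Nfe2l2; every axis starts at 0. Gclc and Gclm lie below NC and Gpx3 above NC in both diabetic groups, and Ggt6 is split within DN+NaB.

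Transferases of the alpha class gave calls in opposite directions from genes of nearly the same sequence. Gsta2 had 124, 99.7, 95.3 and 84.8 CPM in DN+NaB, 53.7, 81.2, 49.4 and 48.9 CPM in DN, and 121, 184, 143 and 108 CPM in NC. All DN libraries lay below all libraries of both other groups, and DN+NaB overlapped NC. Its log2 fold change was 0.79 ± 0.20 in DN+NaB against DN (SE, edgeR adjusted p = 0.166), -1.25 ± 0.20 in DN against NC (adjusted p = 0.00118) and -0.46 ± 0.19 in DN+NaB against NC (adjusted p = 0.125). Gsta1 had 3.18, 1.21, 1.37 and 1.21 CPM in DN+NaB, 2.57, 0.985, 1.91 and 1.10 CPM in DN, and 0.245, 0.0929, 0.0452 and 0.208 CPM in NC. Both diabetic groups lay above NC, where Gsta1 had 16, 6, 3 and 15 counts. The log2 fold change was 3.53 ± 0.53 in DN+NaB against NC (SE, edgeR adjusted p = 0.000559) and 3.45 ± 0.53 in DN against NC (adjusted p = 0.000959).

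Reads of these genes are hard to tell apart. The coding sequences of Gsta1 and Gsta2 (GENCODE M21) differ at 13 of 666 bases, and 90.5% of the 50-base windows of Gsta1 transcripts and 49.3% of those of Gsta2 also occur in transcripts of a close copy. Between them on chromosome 9 lie Gm3776, whose coding sequence differs from that of Gsta1 at 2 of 669 bases, and Gm10639, which differs from Gsta2 at 10 of 666. Bases 449 to 508 of each coding sequence are shown, since they carry 5 of the differing positions, in capitals, within a run of otherwise equal letters.
Gsta1: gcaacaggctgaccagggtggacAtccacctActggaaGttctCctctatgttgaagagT
Gm3776: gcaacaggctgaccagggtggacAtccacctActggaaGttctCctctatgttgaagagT
Gm10639: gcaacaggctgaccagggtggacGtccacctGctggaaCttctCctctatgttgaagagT
Gsta2: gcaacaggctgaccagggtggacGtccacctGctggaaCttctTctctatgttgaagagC
Gsta1 and Gm3776 are the same over these 60 bases, and Gm10639 shares letters with each of the others. Gm10639 had 31.9, 22.2, 16.5 and 15 CPM in DN+NaB, 7.91, 11.4, 7.24 and 4.78 CPM in DN, and 3.67, 3.28, 3.69 and 1.72 CPM in NC, so that the 3 groups did not overlap. Its log2 fold change was 1.45 ± 0.31 in DN+NaB against DN (SE, edgeR adjusted p = 0.104), 1.34 ± 0.31 in DN against NC (adjusted p = 0.0175, and 0.0501 without DN replicate 2) and 2.79 ± 0.33 in DN+NaB against NC (adjusted p = 0.000105). Gm3776 was called higher in DN+NaB (3.20, edgeR adjusted p = 0.000989) and in DN (2.47, adjusted p = 0.00835), both against NC, at no more than 1.09 CPM in any library. Summed over the 4 genes, the level was 160.4, 124, 114 and 102 CPM in DN+NaB, 65.1, 94.0, 59.0 and 55.0 CPM in DN, and 125, 187, 147 and 110.2 CPM in NC. The sum does not depend on how counted reads were divided among the 4 genes. It would still miss shared reads if reads with several matches were dropped. The sum in every DN library lay below that in every library of both other groups, as for Gsta2 alone. How the deposited counts treat reads with several matches is not given in the sources used here, so the rise of Gsta1 by itself is uncertain, and the sum may be incomplete.

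**Figure D5:**
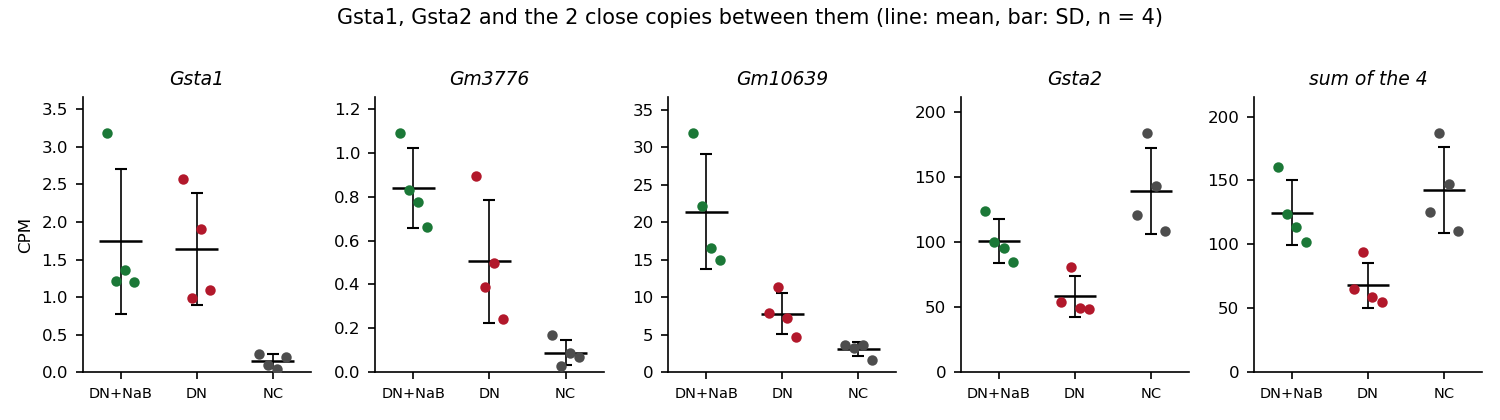
CPM per library (points) with mean and SD (n = 4) in DN+NaB, DN and NC for Gsta1, Gm3776, Gm10639 and Gsta2, in their order on chromosome 9, and for their sum. Gsta2 and the sum are lowest in DN, while the 3 other genes are lowest in NC.

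The mu class conjugates a wide range of electrophiles, and 2 of its 7 tested members were called. Gstm6 had 4.19, 2.40, 3.11 and 2.66 CPM in DN+NaB, 4.56, 3.04, 3.24 and 2.52 CPM in DN, and 1.85, 1.72, 1.01 and 1.11 CPM in NC. Both diabetic groups lay above NC, with log2 fold changes of 1.12 ± 0.27 in DN+NaB (SE, edgeR adjusted p = 0.0126) and 1.23 ± 0.27 in DN (adjusted p = 0.0117). Gstm7 had 37.0, 31.4, 29.0 and 28.3 CPM in DN+NaB, 25.6, 27.5, 23.7 and 16.5 CPM in DN, and 16.5, 20.1, 17.8 and 14.8 CPM in NC. DN+NaB lay above both other groups, and DN overlapped NC through DN replicate 4. Gstm7 had log2 fold changes of 0.43 ± 0.16 in DN+NaB against DN (SE, edgeR adjusted p = 0.396), 0.43 ± 0.16 in DN against NC (adjusted p = 0.117) and 0.86 ± 0.16 in DN+NaB against NC (adjusted p = 0.00235). The other 5 mu members, Gstm1 among them, were not called in any comparison.

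Theta class members act on small halogenated compounds and peroxides. Of 3 tested members, Gstt1 was called higher in both diabetic groups, Gstt3 in DN+NaB against NC, and Gstt2 in no comparison. Gstt1 had 235, 213, 203 and 189.9 CPM in DN+NaB, 157, 189.6, 251 and 148 CPM in DN, and 112, 116, 126 and 83.8 CPM in NC. All diabetic libraries lay above all NC libraries, and the log2 fold change was 0.94 ± 0.17 in DN+NaB against NC (SE, edgeR adjusted p = 0.00176) and 0.77 ± 0.17 in DN against NC (adjusted p = 0.0103). Gstt3 had 102, 97.6, 101 and 93.7 CPM in DN+NaB, 83.6, 91.3, 102 and 64.1 CPM in DN, and 67.0, 70.1, 70.9 and 58.0 CPM in NC. DN+NaB lay above NC (0.57 ± 0.13, edgeR adjusted p = 0.00802), while DN overlapped NC through DN replicate 4 (0.36 ± 0.13, adjusted p = 0.107). Gstt2 averaged 113 ± 8.25 CPM in DN+NaB, 123 ± 41.0 CPM in DN and 107 ± 4.09 CPM in NC (SD, n = 4 each).

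Of the omega, zeta and kappa classes, Gsto1, which also reduces dehydroascorbate, was called. It had 139, 128, 99.7 and 127 CPM in DN+NaB, 105, 129, 126 and 117 CPM in DN, and 101, 102, 90.5 and 78.1 CPM in NC. DN lay above NC without overlap, whereas DN+NaB replicate 3 lay within NC. The call fell to DN+NaB against NC (0.41 ± 0.12, edgeR adjusted p = 0.037) and not to DN against NC (0.36 ± 0.12, adjusted p = 0.0919). It was lost without NC replicate 3 or 4 or DN+NaB replicate 1, 2 or 4 (adjusted p up to 0.103). Gstz1, an enzyme of tyrosine breakdown, Gstk1 and Gsto2 were not called in any comparison, nor was Gstp1 of the pi class, whose libraries ran from 1.54 to 10.3 CPM in DN+NaB, 0.597 to 2.57 CPM in DN and 1.19 to 20.9 CPM in NC.

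Mgst1, a transferase and peroxidase of the endoplasmic reticulum and outer mitochondrial membrane, was higher with diabetes. It had 85.4, 60.8, 66.3 and 76.2 CPM in DN+NaB, 120.4, 53.6, 89.2 and 81.7 CPM in DN, and 40.2, 33.0, 36.1 and 31.5 CPM in NC. All diabetic libraries lay above all NC libraries. The log2 fold change was 1.04 ± 0.20 in DN+NaB against NC (SE, edgeR adjusted p = 0.00286) and 1.29 ± 0.20 in DN against NC (adjusted p = 0.000957). Mgst3 was not called in any comparison. Ggta1, which builds the galactose-alpha-galactose sugar of mouse cells, ran from 3.0 to 3.81 CPM in DN+NaB, 2.89 to 6.99 CPM in DN and 5.27 to 5.85 CPM in NC. It was called lower in DN+NaB against NC (-0.74 ± 0.24, edgeR adjusted p = 0.0488), and that call held without DN replicate 2, 3 or 4 and was lost without any other library (adjusted p up to 0.121).

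In the thioredoxin arm 1 of 4 members was called. Srxn1, sulfiredoxin, which restores overoxidised peroxiredoxins, had 122, 113, 117 and 98.9 CPM in DN+NaB, 101, 85.9, 108 and 79.9 CPM in DN, and 74.8, 76.5, 69.7 and 61.0 CPM in NC. Both diabetic groups lay above NC. The log2 fold change was 0.68 ± 0.12 in DN+NaB against NC (SE, edgeR adjusted p = 0.00165) and 0.41 ± 0.12 in DN against NC (adjusted p = 0.0474). The call in DN held without DN replicate 4 (adjusted p = 0.0146) and was lost without each of the other 11 libraries (adjusted p up to 0.11). It was also lost in 4 of 9 other settings: scaling by library size, no filter beyond 1 count, a fit of only the 2 groups, and limma-voom. Txn1, thioredoxin, averaged 114 ± 7.96 CPM in DN+NaB, 140.2 ± 39.0 CPM in DN and 102 ± 12.9 CPM in NC, with DN libraries from 100.2 to 190.4 CPM, and it was called in DN against NC without DN replicate 2 alone (adjusted p = 0.0354). Txnrd1, its reductase, averaged 139 ± 21.8 CPM in DN+NaB, 128 ± 6.75 CPM in DN and 132 ± 20.8 CPM in NC, and Prdx1, a peroxiredoxin, 549.6 ± 109 CPM in DN+NaB, 443 ± 70.9 CPM in DN and 463 ± 113 CPM in NC (SD, n = 4 each). Neither was called in any comparison.

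Superoxide dismutases, which turn superoxide into peroxide, and catalase, which removes it, gave no call in any of the 3 comparisons. Sod1, the cytosolic form, averaged 288 ± 29.8 CPM in DN+NaB, 261 ± 60.3 CPM in DN and 327 ± 56.8 CPM in NC. Sod2, the mitochondrial form, averaged 379 ± 35.1 CPM in DN+NaB, 334 ± 46.7 CPM in DN and 385 ± 31.8 CPM in NC. Sod3, the extracellular form, averaged 600.3 ± 52.4 CPM in DN+NaB, 661 ± 135 CPM in DN and 714 ± 72.8 CPM in NC, and Cat 1043 ± 131 CPM in DN+NaB, 897 ± 148 CPM in DN and 995 ± 36.3 CPM in NC (SD, n = 4 each). In DN against NC the edgeR adjusted p of these genes ran from 0.279 for Sod1 to 0.733 for Sod3, and all 4 log2 fold changes were below 0. At an unadjusted p under 0.05, 0 of the 4 passed edgeR's test in any comparison, where 9.85% of all genes did in DN+NaB against DN, 21.9% in DN against NC and 30.1% in DN+NaB against NC, and 0 of the 4 were called by DESeq2 or limma-voom.

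Transcripts of NRF2 itself and of its inhibitor were not called in any comparison. Nfe2l2, which encodes NRF2, had 112, 111, 86.0 and 92.8 CPM in DN+NaB, 102, 93.4, 89.5 and 116 CPM in DN, and 91.6, 91.1, 86.7 and 88.1 CPM in NC. Keap1 had 49.2, 56.0, 51.8 and 49 CPM in DN+NaB, 52.5, 57.0, 65.7 and 51.4 CPM in DN, and 50.9, 50.1, 51.4 and 45.1 CPM in NC. The DN values of Keap1 all lay just above those of NC, and the other pairs of groups overlapped for both genes. In DN against NC the log2 fold change was 0.17 ± 0.11 for Nfe2l2 (SE, edgeR adjusted p = 0.432) and 0.20 ± 0.10 for Keap1 (adjusted p = 0.281). NRF2 is regulated mainly through its protein, which these libraries do not measure. Nqo1, the quinone reductase often read as its target, averaged 94.0 ± 13.6 CPM in DN+NaB, 80.9 ± 24.3 CPM in DN and 65.2 ± 11.9 CPM in NC (SD, n = 4 each). Its log2 fold change was 0.53 ± 0.19 in DN+NaB against NC (edgeR adjusted p = 0.0826; 0.0435 without DN replicate 1) and 0.31 ± 0.19 in DN against NC (adjusted p = 0.386). Hmox1, heme oxygenase, ran from 54.8 to 94.7 CPM in DN+NaB, 34.2 to 49.7 CPM in DN and 36.7 to 57.3 CPM in NC.

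Butyrate was set against its diabetic background in DN+NaB against DN, where no member was called by edgeR and 0.0228% of all tested genes were (0.0114% higher and 0.0114% lower). Gsta2, Gsta4, Gstm7 and Hmox1 had all DN+NaB libraries above all DN libraries, which held for 2.13% of all genes, and no member had them all below, which held for 2.44%. At an unadjusted p under 0.05, 7 of 49 members passed edgeR's test, where 9.85% of all genes did; DESeq2 called 1 member (Gsta2) and limma-voom called 0. The largest of the 4 non-overlapping changes were those of Gsta2 (above) and Hmox1 (0.68 ± 0.20, edgeR adjusted p = 0.251, higher in 4 of 4 libraries). Log2 fold changes were above 0 for 38 of 49 members (77.6%), where they were for 47.2% of all genes, with medians of 0.173 and -0.0193. Without DN replicate 4 they were above 0 for 31 members (63.3%), with a median of 0.0977. Macrophage markers (8 of 8 in the table, none at 0 in all libraries) summed to 353 to 1030 CPM in DN+NaB, 1170 to 4230 CPM in DN and 954 to 1320 CPM in NC. Most counts of that sum were of Cd74, with 13362 to 60675 counts in DN+NaB and 58106 to 260557 in DN. In counts, Cd68 overlapped between the groups too, with 132 to 214 in DN+NaB and 209 to 407 in DN. For both genes the overlap lay between DN+NaB replicate 4 and DN replicate 2, libraries of 70282959 and 59744476 counts. Scaled to library size, Cd74 and Cd68 were lower in every DN+NaB library than in any DN library, while the other macrophage markers overlapped. Csf1r, for one, had 3508 to 3945 counts in DN+NaB, 3020 to 4549 in DN and 7162 to 7830 in NC. Markers of T and NK cells (8 of 8, none at 0 in all libraries) summed to 2.3 to 3.57 CPM in DN+NaB, 5.9 to 18.4 CPM in DN and 16.1 to 28.5 CPM in NC. Their part in the values of the members was not tested.

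The members called in both diabetic groups against NC were 8, and each was also set between DN+NaB and DN. An approximate 95% interval of the log2 fold change was taken from its SE with a normal multiplier, which makes it somewhat narrower than edgeR's test implies. In DN+NaB against DN this interval ran from -0.0921 to 0.325 for Gclc, from -0.278 to 0.144 for Gclm and from -0.246 to 0.313 for Gpx3. The interval was -0.15 to 0.494 for Gstt1, -0.636 to 0.123 for Mgst1, -0.635 to 0.407 for Gstm6 and -0.808 to 0.973 for Gsta1. For Srxn1 it ran from 0.0364 to 0.498, above 0, around a log2 fold change of 0.27 ± 0.12 (SE, unadjusted p = 0.0395, edgeR adjusted p = 0.48). For each of these genes but Srxn1, both approximate bounds are smaller in size than its change in DN against NC. For Gsta1 and Gstm6 the intervals leave room for a sizeable difference in either direction. Members called in DN against NC but not in DN+NaB against NC are outside this set. Their intervals in DN+NaB against DN were 0.411 to 1.17 for Gsta2, 0.659 to 2.98 for Ggt6 and -0.217 to 0.386 for Ggt1, and none of these was called.

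Genes around the pathway that the rule does not take were read from lists of glutathione transport, thioredoxin, NADPH, NRF2 partners and targets, heme and iron, and selenoprotein synthesis. Of 111 tested genes, 12 were called higher and 5 lower in DN against NC (15.3%), and 15 higher and 5 lower in DN+NaB against NC (18%), by edgeR, where 8.23% of all tested genes were called in DN against NC and 15.6% in DN+NaB against NC. The share in DN+NaB against NC was thus close to that of all genes. The 12 dropped to 6 or 7 without any 1 of the NC libraries or DN replicate 3, and the 5 in DN+NaB to 3 without NC replicate 1 or DN+NaB replicate 2, 3 or 4. The called genes named next held their calls without any 1 library. Among transport and methylglyoxal genes, Abcc4, an exporter, averaged 529.8 ± 117 CPM in DN+NaB, 328 ± 38.5 CPM in DN and 143 ± 24.2 CPM in NC. Slc3a2, the heavy chain of the cystine-glutamate exchanger and other transporters, averaged 694 ± 90.1 CPM in DN+NaB, 525 ± 134 CPM in DN and 282 ± 37.4 CPM in NC. Glo1, the glutathione-dependent glyoxalase that clears methylglyoxal, averaged 73.2 ± 8.24 CPM in DN+NaB, 59.1 ± 11.1 CPM in DN and 34.6 ± 1.69 CPM in NC (SD, n = 4 each). All 3 were called higher in DN+NaB and in DN against NC, with log2 fold changes in DN of 1.2 ± 0.16 for Abcc4, 0.90 ± 0.17 for Slc3a2 and 0.77 ± 0.13 for Glo1 (SE, edgeR adjusted p = 0.000413, 0.00434 and 0.00188). Slc7a11, the light chain of the cystine-glutamate exchanger, averaged only 0.126 ± 0.103 CPM in DN+NaB, 0.967 ± 1.73 CPM in DN and 0.0904 ± 0.0875 CPM in NC. It was not called in any comparison.

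Enzymes that supply NADPH moved both ways. Me1, the cytosolic malic enzyme, averaged 219.7 ± 18.7 CPM in DN+NaB, 202 ± 29.7 CPM in DN and 435 ± 49.9 CPM in NC, and Idh1, cytosolic isocitrate dehydrogenase, 347 ± 42.1 CPM in DN+NaB, 353 ± 59.2 CPM in DN and 211 ± 41.0 CPM in NC (SD, n = 4 each). Me1 was called lower and Idh1 higher in both diabetic groups, with log2 fold changes in DN of -1.11 ± 0.13 and 0.75 ± 0.16 (SE, edgeR adjusted p = 9.31e-05 and 0.00835). Of the 30 listed NRF2 targets tested, 3 were called higher and 2 lower in DN against NC (16.7%), where 8.23% of all tested genes were called. Among them Abcc3, another exporter, was higher in DN (1.79 ± 0.22, edgeR adjusted p = 0.000211) and Trim16 lower (-1.44 ± 0.27, adjusted p = 0.00374). Abcc3 is also on the list of genes higher in female mouse kidney, which summed higher in both diabetic groups. In DN+NaB against DN, 0 of the 111 genes were called by edgeR, where 0.0228% of all genes were, and 21 had an unadjusted p under 0.05, where 9.85% of all genes did. DESeq2 called 1 of them, with 84 higher and 173 lower among all genes, and limma-voom 0.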

How the data were processed

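The authors deposited 1 table of whole-number read counts per gene symbol for the 12 libraries, with no normalization. The aligner HISAT2 2.0.4 is listed, per the submitters' processing notes. Not given in the sources used here are the counter, strand use, gene annotation and genome build, so close copies and overlapping genes are uncertain. Groups came from the sample titles and the disease and treatment labels. Counts were filtered with filterByExpr by group (17530 genes kept), scaled by TMM and fitted with edgeR 4.0.16 (R 4.3.3): quasi-likelihood test, group as the only term, robust estimation, all 12 libraries in 1 fit, Benjamini-Hochberg adjustment over all genes tested, two-sided, called under 0.05. Log2 CPM for likeness used a prior count of 2. A floor of 3 counts lies between 0.0416 and 0.0528 CPM; it covers counting error only. No pair of libraries agreed within sampling noise (chi-square per degree of freedom at least 23.6). The fit was tested on simulated data.

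The alternatives were DESeq2 1.42.0, limma-voom (limma 3.58.1), other scaling and filters, 2-group fits, no robust estimation, a replicate block and leaving out each library. The members, the lists and the tests were chosen with earlier results of these data known. Named with values are the 16 single genes, the Gpx genes, Ggt1 and every member called in any comparison, with every library's value for at most 15 of the smallest adjusted p and for Nfe2l2 and Keap1. The pathway genes named are up to 4 called genes per list with the smallest adjusted p, and Slc7a11, which was not called. The look at Gm10639 and Gm3776, at the sum of 4 genes and at genes most like Ggt6 was added after the data were seen, as was the choice to name Hmox1, Gsta4 and Gstp1 where their groups or single libraries stood apart. Exon lengths and transcripts are those of GENCODE M21, used for lengths and sequence only; RefSeq GRCm38.p6 gave names, gene order and promoters (54 of 54 members and 41483 of 46095 symbols matched). No gene coordinates are given for the deposited table, whose build is not known here.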

Additional observations from a re-analysis of the deposited data

Results flagged for a closer look

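In 9 of 147 groups of 4 libraries (49 members in 3 groups), the highest or lowest library stood apart from the others by more than Dixon's 95% limit, where chance alone gives about 7.35. DN replicate 4 accounted for 3 of them: Gstm1 at 378 CPM (the other DN libraries 531 to 557 CPM), Gstz1 at 206 CPM (303 to 307 CPM) and Gstcd, a gene with a transferase-like domain, at 12.4 CPM (9.97 to 10 CPM). This is also the library with the highest summed tubular injury markers.

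Gstp1 stood apart in DN+NaB replicate 3, at 10.3 CPM (the others 1.54 to 1.92 CPM), and in NC replicate 2, at 20.9 CPM (1.19 to 3.52 CPM). Gsta1 was at 3.18 CPM in DN+NaB replicate 1 (1.21 to 1.37 CPM) and Gsta2 at 81.2 CPM in DN replicate 2 (48.9 to 53.7 CPM). Hmox1 was at 94.7 CPM in DN+NaB replicate 2 (54.8 to 59.4 CPM), and Gpx1 at 792 CPM in NC replicate 4 (1120 to 1180 CPM). Ggt6 in DN+NaB, split into a high and a low pair, cannot be picked up by a search for a lone library.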

How the results depend on the processing

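No called member changed sign under any of the 9 other settings or with any library left out; 36 of the 122 results not called did so under at least one. In DN against NC, Gclc, Gclm, Gpx3, Gsta1, Gsta2, Gstm6, Gstt1 and Mgst1 were called in 9 of 9 other settings and 12 of 12 fits without a library. Leaving out libraries gave 5 to 8 members higher and 3 to 6 lower in DN against NC (3 without DN replicate 1, against 5 with all), 0 to 0 in each direction in DN+NaB against DN, and 8 to 11 higher and 2 to 6 lower in DN+NaB against NC (2 without NC replicate 2 or 3 or DN+NaB replicate 2, 3 or 4, against 4 with all). DESeq2 called 1 member higher in DN+NaB against DN. For the pathway genes outside the rule the ranges were 6 to 14 higher and 4 to 6 lower in DN against NC, 0 to 0 in each direction in DN+NaB against DN, and 12 to 22 higher and 3 to 6 lower in DN+NaB against NC; DESeq2 called 1 higher in DN+NaB against DN, and a fit of only the 2 groups called 25 higher in DN+NaB against NC.

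Scaling by library size alone moved the median log2 fold change of all genes to -0.122 in DN+NaB against NC and -0.0827 in DN against NC, and called 7 members lower in DN+NaB against NC. Over all genes it called 503 higher and 1103 lower in DN against NC (669 and 774 with TMM) and 875 higher and 2070 lower in DN+NaB against NC (1161 and 1568 with TMM). All-gene counts in DN+NaB against DN ran from 0 with 2 groups alone to 84 higher and 173 lower with DESeq2, against 2 and 2 in the reported fit. The cause was not tested.

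The replicate numbers showed no clear pairing of the samples: correlations of same-numbered libraries ran from -0.25 to 0.27 over 12 pairs, 6 of them over 0.1, and 5 of 12 libraries were closest to their own number. These values do not settle whether the samples were paired. With a replicate block, 6 members were called higher and 5 lower in DN against NC, 0 and 0 in DN+NaB against DN, and 12 higher and 4 lower in DN+NaB against NC. Ggt6 in DN against NC and Gpx6 and Ggta1 in DN+NaB against NC were not called with the block. Members with few reads, such as Gsta1 in NC with 3 to 16 counts a library, are limited by their counts, and with 4 libraries a group, changes of the size of 1 standard error cannot be told from none.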
